A study of Mus musculus with 12 samples.

Results

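The genes described are 9 receptors that position lymphocytes in tissues, namely the chemokine receptors Ccr6, Ccr7, Ccr9, Cxcr3, Cxcr4 and Cxcr5, the sphingosine 1-phosphate (S1P) receptors S1pr1 and S1pr4, and the oxysterol receptor Gpr183. They were taken by gene symbol and make up 9 of the 41128 genes in the table. The 12 RNA-seq libraries came from the spleen of C57BL/6J mice with no treatment labelled, 6 to 8 weeks old. They form 4 groups of 3, with CD43- resting B cells of females, the same of males, naive CD4+ CD62L+ T cells of females and the same of males. Magnetic depletion removed other cells, regulatory T cells included, before the T cells were sorted as CD62L high, CD44 low and CD25-. Each replicate is a pool of mice per the series, and errors below are therefore over pools. A digit in the sample descriptions, whose meaning the labels do not give, is 2 in female B and male T cells and 1 in male B and female T cells. Differences between the sexes within a cell type therefore cannot be told apart from it.

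Receptors of this kind couple to heterotrimeric G proteins and steer cells along gradients of their ligands. In spleen and lymph nodes, Cxcl13 draws Cxcr5-bearing cells into B cell follicles, Ccl19 and Ccl21 draw Ccr7-bearing cells into the T cell zone, and oxysterols position cells through Gpr183 at the follicle edge. S1pr1 senses the S1P of blood and lymph and is needed for lymphocytes to leave the tissue, and it is held off the surface by Cd69. Klf2 and Foxo1 are transcription factors known to sustain S1pr1 and Ccr7 in resting lymphocytes.

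The values are adjusted TPM, a length-corrected share of transcripts that the authors rescaled between libraries by a method not given in the sources used here. Levels can be compared between genes within a library, while comparisons between libraries rest on that rescaling, and 3 other scalings were run beside it. Totals ran from 561020 to 1453940 per library, read depth is unknown, and the gene Yam1 alone took 2.03% to 37.4% of the total. The cell type labels held, since the summed level of 4 B cell markers (Cd79a, Cd79b, Ms4a1 and Pax5) was 2220 to 2643 in B and 0.896 to 4.91 in T libraries. The summed level of 5 T cell markers (Cd3d, Cd3e, Cd4, Lck and Tcf7) was 1017 to 1194 in T and 9.76 to 14.1 in B libraries. Transcripts of other cells were present, with Lyz2, Csf1r, Cd68 and Itgax as 4 monocyte, macrophage and dendritic cell markers. They summed to 10.0 to 15.8 in B and 1.11 to 5.05 in T libraries. Their part in receptors at low levels in B cells was not tested. Both T cell libraries numbered 6 stood apart from the other 4 T libraries, as described after the levels. In bulk samples, fewer cells of a type and less RNA per cell cannot be told apart.

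The genes lie apart on the mouse genome (GENCODE M21, GRCm38), with Ccr9 and Cxcr5 both on chromosome 9 but far from each other. Ccr7 is at chr11:99144196-99155077 and Cxcr5 at chr9:44511787-44561877, both on the minus strand, and Ccr9 is at chr9:123678439-123784330 on the plus strand. Cxcr4 (chr1:128588199-128592293), S1pr1 (chr3:115710433-115715072), S1pr4 (chr10:81497747-81500132), Gpr183 (chr14:121952551-121965195) and Cxcr3 (chrX:101731535-101734269) are on the minus strand. Ccr6 (chr17:8236043-8257141) is on the plus strand.

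Promoter sequences, 250 bases before to 50 bases after an annotated start, were held in RefSeq (GRCm38.p6, the assembly behind mm10) for 6 of the 9 receptors, with 2 starts for Ccr6. Of the 7 sequences, 3 are shown because they span the range of CpG content and come from receptors called in both directions between B and T cells. They are Cxcr4 (chr1:128592250-128592549, minus strand), the downstream start of Ccr6 (chr17:8242276-8242575, plus strand) and S1pr4 (chr10:81500088-81500387, minus strand), each written 5′ to 3′ with CpG dinucleotides in capitals.
Cxcr4: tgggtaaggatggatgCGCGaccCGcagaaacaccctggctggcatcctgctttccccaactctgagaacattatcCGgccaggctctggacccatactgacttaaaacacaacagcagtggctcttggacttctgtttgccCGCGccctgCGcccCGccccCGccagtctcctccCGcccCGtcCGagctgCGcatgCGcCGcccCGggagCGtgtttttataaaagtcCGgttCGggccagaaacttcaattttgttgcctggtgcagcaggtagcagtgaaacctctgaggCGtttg
Ccr6: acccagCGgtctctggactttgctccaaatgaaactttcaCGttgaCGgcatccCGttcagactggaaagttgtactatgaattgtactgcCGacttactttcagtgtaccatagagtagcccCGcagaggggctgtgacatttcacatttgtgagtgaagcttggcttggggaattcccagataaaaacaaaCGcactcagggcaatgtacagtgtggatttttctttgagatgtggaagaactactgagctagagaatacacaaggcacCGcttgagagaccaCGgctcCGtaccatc
S1pr4: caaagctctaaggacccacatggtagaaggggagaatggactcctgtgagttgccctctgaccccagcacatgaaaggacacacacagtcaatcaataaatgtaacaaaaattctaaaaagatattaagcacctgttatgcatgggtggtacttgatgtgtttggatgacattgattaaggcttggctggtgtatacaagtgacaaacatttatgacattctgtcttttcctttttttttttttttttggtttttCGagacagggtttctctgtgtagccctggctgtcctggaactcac
The Cxcr4 promoter held 20 CpG, more than 73.5% of the 32851 mouse promoters in the RefSeq set, whose median was 7. The downstream Ccr6 start held 10 CpG and the upstream one 2, while Ccr9, Cxcr3 and Gpr183 held 4 each. The S1pr4 promoter held 1 CpG, and 5.43% of all promoters held none. The letters CACCC, the core recognised by Klf factors, occurred on either strand in the promoters of Ccr9, Cxcr4 and S1pr4, against 57.5% of all promoters. The letters GTAAACA, a forkhead core, occurred in none of the 7 sequences and in 3.65% of all promoters. These matches describe the letters in a window of 300 bases and are not binding sites.

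Resting B cells and naive T cells were compared first. Cxcr5, Ccr6 and Cxcr4 were higher in B cells, and Ccr7, S1pr1 and Ccr9 were higher in T cells. S1pr4 and Gpr183 were higher in T cells as deposited, but their calls depended on the scaling. The higher B cell level of Cxcr3 depended on how the T libraries were counted. The test was limma, fitted on log2(adjusted TPM + 1) across the 12520 genes with at least 1 adjusted TPM in at least 3 libraries, with Benjamini-Hochberg adjustment. Ccr6 and Cxcr3 passed this filter through the B libraries alone, which by itself favours a difference. Their p-values are given from the fit without a filter, over all 41128 genes. That fit called 59.8% of all genes between B and T cells. For sex it called 26.7% in B and 25.8% in T cells, against 0.144% and 0.104% with the filter. Its p-values are therefore not strict, and exact permutation p-values are given below as well. The other 7 receptors passed the filter in either cell type, and each had an adjusted p under 0.05. Of these 7, 2 were higher in B and 5 in T cells. The background is high, since 73.0% of all genes that passed the filter were called, 31.4% higher and 41.6% lower in B cells. The B and T libraries did not overlap for 6 of the 9 receptors, against 53.9% of all genes, and the overlapping ones were Cxcr3, Cxcr4 and Gpr183. For the same 6, the bounds that the authors deposited around each value did not overlap either.

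**Figure D1:**
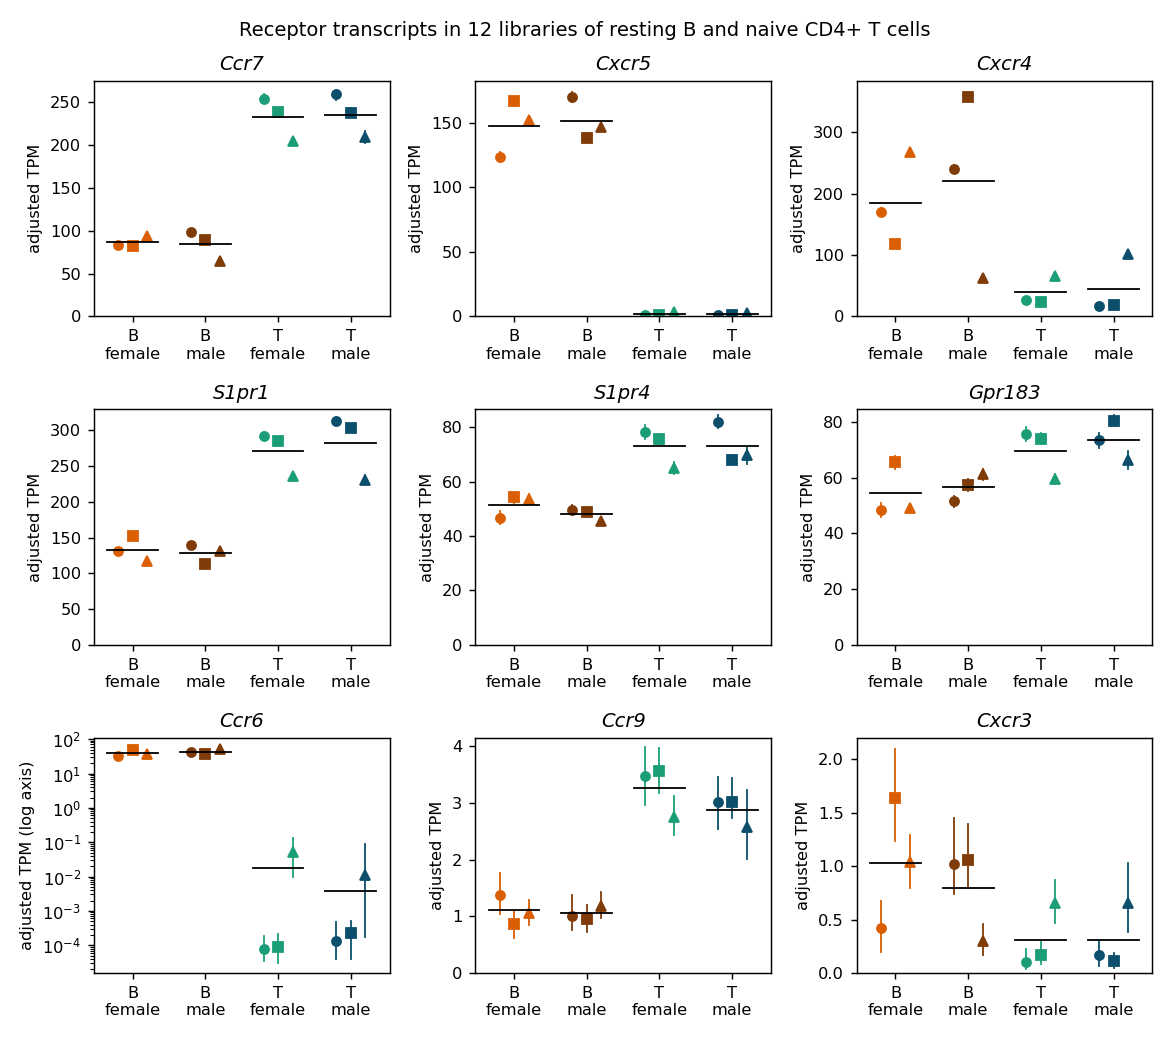
Adjusted TPM (vertical axes, starting at 0 except for Ccr6, which has a log axis) of the 9 receptors in the 12 libraries. Circles, squares and triangles are the libraries numbered 1, 2 and 3 for B cells, or 4, 5 and 6 for T cells, vertical lines are the deposited bounds and horizontal lines are group means (n = 3). Cxcr5 was at least 123 in the B libraries and at most 3.39 in the T libraries, and the T libraries numbered 6 (triangles) sat above the other T libraries for Cxcr3, Cxcr4 and Cxcr5.

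Among the receptors for the follicle and the T cell zone, Cxcr5 and Ccr7 differed between the cell types in opposite directions. Cxcr5, the Cxcl13 receptor, was at 123, 167 and 152 adjusted TPM in female B cells and at 170, 139 and 146 in male B cells. It was at 1.14, 1.09 and 3.39 in female T cells and at 0.932, 1.13 and 2.97 in male T cells. Every B library was far above every T library, and within the T cells both libraries numbered 6 were the highest. The log2 difference, B minus T, was 5.84 ± 0.21 (SE; limma adjusted p = 3e-11), and the lowest bound in B cells was 31.4 times the highest bound in T cells. The pseudocount of 1 holds this difference down, and a pseudocount of 0.1 gave 6.50. A log2 difference of that size or more in favour of B cells was seen in 0.639% of all genes tested. The annotated Cxcr5 locus overlaps Bcl9l on the opposite strand, which limits how surely reads can be assigned to it at the low T levels.

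Ccr7, the receptor for Ccl19 and Ccl21, was at 83.0, 82.4 and 94.1 adjusted TPM in female B cells and at 98.3, 89.0 and 64.3 in male B cells. It was at 253, 238 and 204 in female T cells and at 259, 237 and 208 in male T cells. The lowest T library was above the highest B library by more than the spread within either cell type. B minus T gave a log2 difference of -1.45 ± 0.10 (SE; limma adjusted p = 4.1e-08), and the T mean was 2.74 times the B mean.

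The ratio of these transcripts within a library does not depend on how libraries are scaled. Cxcr5 over Ccr7 was 1.49 to 2.28 in the 6 B libraries, with a median of 1.67. In the 6 T libraries it was 0.00360 to 0.0166, with a median of 0.00467. Ccr7 was thus a sizeable transcript in B cells as well, where it ranked below S1pr1 and above Gpr183.

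Gpr183, which binds oxysterols at the follicle edge, had the smallest difference between the cell types of the 9 receptors. It was at 48.5, 65.4 and 49.2 adjusted TPM in female B cells and at 51.4, 57.4 and 61.2 in male B cells. It was at 75.7, 74.0 and 59.4 in female T cells and at 73.5, 80.4 and 66.3 in male T cells. The groups overlapped, with female T 6 below 2 of the B libraries. The log2 difference of Gpr183 was -0.36 ± 0.09 (SE; limma adjusted p = 0.0034). With every library rescaled to the same total, the difference was 0.01 (limma adjusted p = 0.96; exact permutation p = 0.94), so its direction depended on the scaling. Gpr183 lies inside Ubac2, which is on the opposite strand. The libraries were made strand-specific, and whether the counting used strand is not given in the sources used here.

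Of the S1P receptors, S1pr1, the receptor for exit into blood and lymph, was at 131, 152 and 117 adjusted TPM in female B cells and at 140, 113 and 131 in male B cells. It was at 292, 286 and 236 in female T cells and at 313, 303 and 230 in male T cells. Every T library was above every B library. The log2 difference was -1.08 ± 0.10 (SE; limma adjusted p = 6.3e-07), and the T mean was 2.12 times the B mean.

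S1pr4, an S1P receptor found mainly on blood and immune cells, was at 46.5, 54.2 and 53.5 adjusted TPM in female B cells and at 49.5, 48.9 and 45.5 in male B cells. It was at 78.3, 75.8 and 64.9 in female T cells and at 81.9, 67.9 and 69.6 in male T cells. The groups did not overlap, and the log2 difference was -0.55 ± 0.07 (SE; limma adjusted p = 1.2e-05). With every library rescaled to the same total it was -0.17 (limma adjusted p = 0.48; exact permutation p = 0.39), and its call was lost. The ratio of S1pr1 to S1pr4 within a library was 2.19 to 2.88 in B cells and 3.31 to 4.47 in T cells, and these ranges did not overlap.

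Cxcr4, the Cxcl12 receptor that retains cells in bone marrow and lymphoid tissue, varied widely between replicates. It was at 170, 118 and 268 adjusted TPM in female B cells and at 240, 358 and 62.8 in male B cells. It was at 27.0, 23.6 and 66.7 in female T cells and at 17.4, 18.0 and 101.4 in male T cells. The groups overlapped, since male B 3 was below both T libraries numbered 6. For Cxcr4 the log2 difference was 2.36 ± 0.51 (SE; limma adjusted p = 0.0011), with a 95% interval from 1.25 to 3.47. Without both T libraries numbered 6 it was 3.00 (limma adjusted p = 0.00011), which is over 1.5 times the fold change with them.

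On the scale of log2(adjusted TPM + 1), the SD of Cxcr4 within groups was 1.08, above that of 99.0% of 671 genes of similar mean level. The deposited bounds of a single library, whose level is not given, spanned a ratio of at most 1.09 in B and 1.19 in T cells. Cxcr5 followed with 0.44, above 98.7% of 2622 genes of similar level, and Cxcr3 with 0.37, above 97.5% of 1259. Similar level refers to the mean over all 12 libraries, which for Cxcr5 lies between its B and its T values. The spread of Cxcr5 lay in T cells, where its SD was 61.9% of the mean in adjusted TPM, against 11.7% in B cells. S1pr4 was at 0.12, above 51.8% of 988 genes.

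Male B 3, the lowest B library for Cxcr4, was also the lowest for Ccr7, Cxcr3 and S1pr4 and the highest for Ccr6. In the same library Fos, an immediate early gene, was at 16.6 adjusted TPM against 52.1 to 174 in the other 5 B libraries. Dusp1, a phosphatase gene induced by stress, was at 8.25 against 25.0 to 52.6, and Rgs1, which dampens chemokine receptor signalling, was at 1.95 against 3.71 to 14.3. Cd69 was at 39.2 against 43.0 to 66.7. Egr1, another immediate early gene, was not lowest there, at 5.95 against 5.72 to 15.1. Over the other B libraries Cxcr4 did not follow Fos. Female B 1 had the highest Fos, at 174, with Cxcr4 at 170. Male B 2 had the highest Cxcr4, at 358, with Fos at 76.1. The part of these genes' state in the Cxcr4 level was not tested.

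Of the receptors for gut and inflamed tissue, Ccr6 was on the B side and Ccr9 on the T side. Ccr6, the Ccl20 receptor, was at 31.6, 47.7 and 35.9 adjusted TPM in female B cells and at 41.7, 37.0 and 50.8 in male B cells. In the T libraries it was listed at no more than 0.0530, with an upper bound of at most 0.135. The lowest bound in B cells was 211 times that value. For Ccr6 the log2 difference was 5.35 (limma adjusted p = 2.4e-10 without a filter), a size that the pseudocount of 1 holds down, and a pseudocount of 0.1 gave 8.53.

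Ccr9, the Ccl25 receptor of cells bound for small intestine and thymus, was at 1.39, 0.864 and 1.07 adjusted TPM in female B cells and at 1.02, 0.953 and 1.19 in male B cells. It was at 3.47, 3.56 and 2.76 in female T cells and at 3.01, 3.02 and 2.58 in male T cells. The groups did not overlap at this low level, and the T mean was 2.84 times the B mean. The log2 difference was -0.97 ± 0.08 (SE; limma adjusted p = 1.9e-07). The annotated Ccr9 locus overlaps 6 other genes, Lztfl1 on the opposite strand among them, which limits how surely reads can be assigned to it.

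Cxcr3, the receptor for Cxcl9, Cxcl10 and Cxcl11, was at 0.423, 1.64 and 1.04 adjusted TPM in female B cells and at 1.02, 1.06 and 0.305 in male B cells. It was at 0.111, 0.171 and 0.658 in female T cells and at 0.176, 0.112 and 0.660 in male T cells. The groups overlapped, and upper and lower bounds of 1 library differed by up to 6.32 times. The log2 difference was 0.53 ± 0.18 (SE from the fit with the filter; limma adjusted p = 0.048 without a filter), and a pseudocount of 0.1 gave 1.36. With T libraries of the same number averaged and counted once, its call was lost (limma adjusted p = 0.053, exact permutation p = 0.095). That limma fit used the filter, which Cxcr3 passed through the B libraries alone. With the filter and all T libraries counted singly, limma adjusted p was 0.018.

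**Figure D2:**
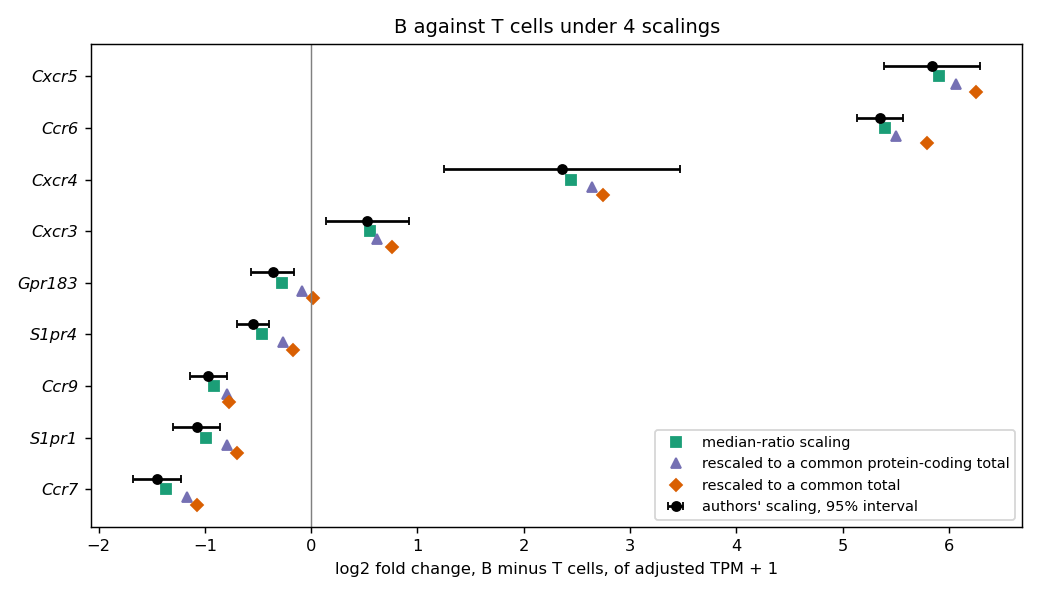
Log2 fold change, B minus T cells, of adjusted TPM + 1 (horizontal axis) for the 9 receptors (vertical axis) over 6 B and 6 T libraries. Black points with bars are the limma estimate and its 95% interval under the authors' scaling, and coloured symbols are the estimates under 3 other scalings. The symbols for Gpr183 run from -0.36 to 0.01, and those of the other 8 receptors keep their side of 0.

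The scaling moved the centre of all genes. The median log2 difference over the genes tested was -0.09 as deposited, -0.01 with median-ratio scaling, 0.17 with a common protein-coding total and 0.26 with a common total. The share of called genes that were higher in B cells was 43.0%, 50.1%, 66.4% and 71.6% in that order. Each other scaling multiplies all values of a library by a single factor. Subtracting the median over all genes therefore takes out most of the shift by arithmetic, and the narrow ranges below are no test of the receptors. Relative to that median, Ccr7 was between -1.36 and -1.33, S1pr1 between -0.99 and -0.96, S1pr4 between -0.46 and -0.43, and Gpr183 between -0.27 and -0.25 over the 4 scalings. On the same footing, Cxcr4 was between 2.45 and 2.48 and Cxcr5 between 5.90 and 5.99. The other 3 moved more, Ccr6 between 5.33 and 5.53, Ccr9 between -1.04 and -0.88 and Cxcr3 between 0.45 and 0.61.

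Each receptor was also tested on its own, whatever the filter. An exact two-sided permutation test over the 924 ways to divide 12 libraries into 6 and 6 gave p = 0.0022, the smallest it can give, for Ccr6, Ccr7, Ccr9, Cxcr5, S1pr1 and S1pr4. It gave exact p = 0.0065 for Cxcr4, 0.0087 for Gpr183 and 0.028 for Cxcr3. These p-values measure the spread between pools. Because T libraries of the same number deviated together, the test was repeated with each such pair averaged, over 84 ways to divide 6 B libraries and 3 T pairs. It then gave exact p = 0.012, the smallest possible, for the 6 receptors whose libraries did not overlap. Exact p was 0.024 for Cxcr4, 0.036 for Gpr183 and 0.095 for Cxcr3.

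Within B cells the order of mean levels, in adjusted TPM with the SD over 6 libraries, was Cxcr4 (203 ± 107), Cxcr5 (150 ± 17.5), S1pr1 (131 ± 14.4), Ccr7 (85.2 ± 11.9), Gpr183 (55.5 ± 6.94), S1pr4 (49.7 ± 3.57), Ccr6 (40.8 ± 7.38), Ccr9 (1.08 ± 0.186) and Cxcr3 (0.915 ± 0.487). Neighbours in this order overlapped in their library values except S1pr1 with Ccr7 and Ccr6 with Ccr9. Within T cells the order was S1pr1 (277 ± 35), Ccr7 (233 ± 22.7), S1pr4 (73.1 ± 6.61), Gpr183 (71.5 ± 7.48), Cxcr4 (42.3 ± 34.3), Ccr9 (3.06 ± 0.386), Cxcr5 (1.78 ± 1.10), Cxcr3 (0.315 ± 0.268) and Ccr6 (0.0107 ± 0.0211). Here S1pr1 overlapped with Ccr7, S1pr4 with Gpr183, Gpr183 with Cxcr4, and Ccr9 with Cxcr5. S1pr1 was nonetheless above Ccr7 in 6 of 6 T libraries. Under the authors' scaling the 9 receptors summed to 563 to 844 adjusted TPM in B and to 638 to 749 in T libraries. These ranges overlapped, while the shares of single receptors in the sum differed. S1pr1 and Ccr7 held 33.8% to 42.7% and 30.5% to 34.7% of that sum in T cells, against 13.4% to 23.2% and 10.6% to 13.1% in B cells.

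Both T libraries numbered 6, of either sex, held the receptors in other proportions than the other 4 T libraries. Their mean was 4.62 times that of the other 4 for Cxcr3, 3.91 times for Cxcr4 and 2.97 times for Cxcr5, and Ccr6 was at 0.0530 and 0.0108 against at most 0.000231. Their mean was 0.836 times that of the other 4 for Ccr7, 0.829 times for Gpr183, 0.817 times for Ccr9 and 0.782 times for S1pr1. Both libraries lay above the other 4 for 4 receptors and below them for 4, and for S1pr4 they overlapped. Ccr6 was 1 of the 4 above, at values far below 1 adjusted TPM. Its bounds in male T 6 ran from 0.000168 to 0.0871 and overlapped those of male T 5, which reached 0.000505. Of all genes, 17.0% lay above and 18.6% below in this way, 35.6% in all. With a common total or a common protein-coding total, Ccr9 no longer lay below, and the other 7 receptors kept their side, while the share of all genes on one side fell to 15.6% and 20.6%. The pattern was noticed in the values, so it was not tested.

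**Figure D3:**
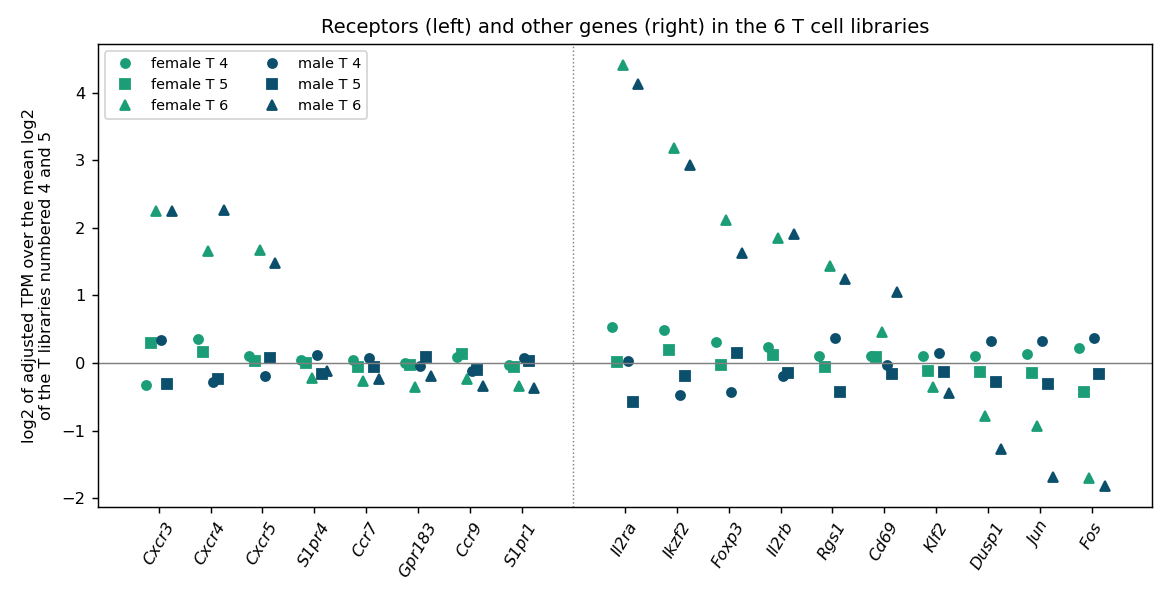
Log2 of adjusted TPM relative to the mean log2 of the T libraries numbered 4 and 5 (vertical axis) for 8 receptors, left of the dotted line, and 10 other genes. Colours are the sexes and triangles the libraries numbered 6, which sat above the other 4 for Cxcr3, Cxcr4, Cxcr5 and Il2ra and below them for S1pr1, Ccr7 and Fos.

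Genes of other T cell states were also higher in the libraries numbered 6. All 3 regulatory T cell genes listed lay above the other 4 T libraries. The genes Foxp3, the lineage transcription factor, Il2ra, which encodes the sorted-out surface protein CD25, and Ikzf2 summed to 21.0 and 17.2 adjusted TPM in the libraries numbered 6 and to 1.75 to 3.14 in the other 4. Il2ra was at 4.999 and 4.11 against 0.158 to 0.340. Of the effector and memory genes Il2rb, Ccl5, Gzmb and Fasl, 2 lay above (Il2rb and Gzmb), and their sum was 24.9 and 24.7 against 9.62 to 11.8. Of the monocyte, macrophage and dendritic cell genes Lyz2, Csf1r, Cd68 and Itgax, 3 lay above (Lyz2, Csf1r and Itgax), with sums of 5.05 and 2.63 against 1.11 to 1.57. Of 5 genes of dissociation stress, 4 lay below. Of the 5 T cell markers, 4 lay below as well and none above. No marker was listed at 0, since the table holds no value of 0. Their part in the receptor levels was not tested.

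Of the 4 B cell markers, 3 lay above in these libraries too, at low levels. The 4 B cell markers summed to 0.206% and 0.102% of their mean in B cells, against 0.0376% to 0.0764% in the other 4 T libraries. Cxcr5 was at 2.27% and 1.99% of its mean in B cells and Cxcr4 at 32.9% and 49.96%. Fos was at 45.2 and 41.5 adjusted TPM in the libraries numbered 6 against 108 to 189, and Klf2 at 145 and 136 against 168 to 205, while Cd69 was at 64.1 and 97.3 against 41.9 to 49.98. Without both libraries, the 7 receptors that passed the filter in either cell type were still called between B and T cells, with 73.7% of all genes.

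The sexes were set against each other separately in B and in T cells. None of the 9 receptors had an adjusted p under 0.05 in limma, in B cells (where 0.144% of all genes were called) or in T cells (where 0.104% were), and none had an unadjusted p under 0.05. The smallest unadjusted p was 0.24 in B cells, for Ccr6, and 0.25 in T cells, for Ccr9. The log2 differences, female minus male, ran from -0.17 to 0.16 in B cells and from -0.08 to 0.14 in T cells. The test of a difference between the sex effects of B and T cells called none of the 9 either, with 0% of all genes called and a smallest unadjusted p of 0.35. The precision differed between receptors. For S1pr4 in T cells the 95% interval ran from -0.22 to 0.21, and for Cxcr4 in B cells from -1.57 to 1.56, so that a large difference in Cxcr4 was not detectable with 3 pools a sex.

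Genes around these receptors were read from lists of other chemokine receptors, ligands, S1P and oxysterol genes, G protein signalling, regulators and other lipid receptors. Of 79 genes listed, 78 were in the table and 51 passed the filter. Of these, 41 were called between B and T cells, 26 higher in B and 15 higher in T cells, a share to be read against 73.0% of all genes. Of the 41, 12 passed the filter through the B and 1 through the T libraries alone, and the 28 that passed it in either cell type were split into 14 higher in B and 14 higher in T cells.

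Other chemokine receptors were few. Of 17, 6 passed the filter and 5 were called, all higher in B cells, but these 5 (Ackr2, Ccr1, Ackr3, Xcr1 and Ccrl2) passed it through the B libraries alone, so their direction was set by the filter. Of all genes that passed the filter, 73.0% were called, and 53.9% had B and T libraries that did not overlap. Over all 17, whatever the filter, 6 were higher in B and 3 in T cells without overlap, to be read against the 53.9%. The 3 were Ccr4, at 0.288 to 1.32 adjusted TPM in T and 0.0147 to 0.0710 in B libraries, Ccr8, at 0.408 to 0.589 and 0.0101 to 0.0436, and Cxcr1, at 0.210 to 1.21 and no more than 0.00242. Ackr2, a scavenging receptor for inflammatory chemokines, was at 4.00 to 6.30 in B and no more than 0.0108 in T libraries, Ccr1 at 3.06 to 5.15 and no more than 0.0376, and Ackr3, which scavenges Cxcl12, at 0.944 to 2.29 and no more than 0.00897. Cxcr6 was not called, at 1.55 to 3.43 in B and 1.90 to 3.35 in T libraries. The monocyte, macrophage and dendritic cell markers also summed higher in B libraries. Whether the called receptors came from B cells was not tested.

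The ligands were close to absent from these cells. Of 10 ligand genes in the table, 9 did not pass the filter and none of those exceeded 0.866 adjusted TPM in any library. Ccl25, the Ccr9 ligand, passed it at 0.468 to 0.994 in B and 0.884 to 1.68 in T libraries and it did so through the T libraries alone. Of the 3 enzymes that make or clear the Gpr183 ligand, Hsd3b7 passed and was called, at 0.957 to 1.79 in B and 0.648 to 1.05 in T libraries and it did so through the B libraries alone.

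In the S1P pathway, 8 of 11 genes passed the filter and 6 were called, against 73.0% of all genes. Of the 6, 5 were higher in B and 1 in T cells. Of the 5, S1pr3, Spns2, Ppap2b and Sgpp2 passed the filter through the B libraries alone, so that count is no result on direction. Spns2, an S1P transporter, was at 9.24 to 12.2 adjusted TPM in B and 0.168 to 0.329 in T libraries. S1pr3 was at 5.41 to 10.9 in B libraries and no higher than 0.0222 in T libraries, and Ppap2b, which encodes a lipid phosphate phosphatase, at 5.02 to 6.41 and no higher than 0.0572. Sgpp2, an S1P phosphatase, was at 2.91 to 5.67 and 0.589 to 1.08. Sgpl1, the S1P lyase, passed the filter in either cell type and was higher in B cells, at 30.1 to 38.8 against 23.5 to 27.3. Sgpp1, another S1P phosphatase, was higher in T cells, at 42.2 to 52.1 against 25.7 to 30.4. Among the other S1P receptors, S1pr2 was not called.

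**Figure D4:**
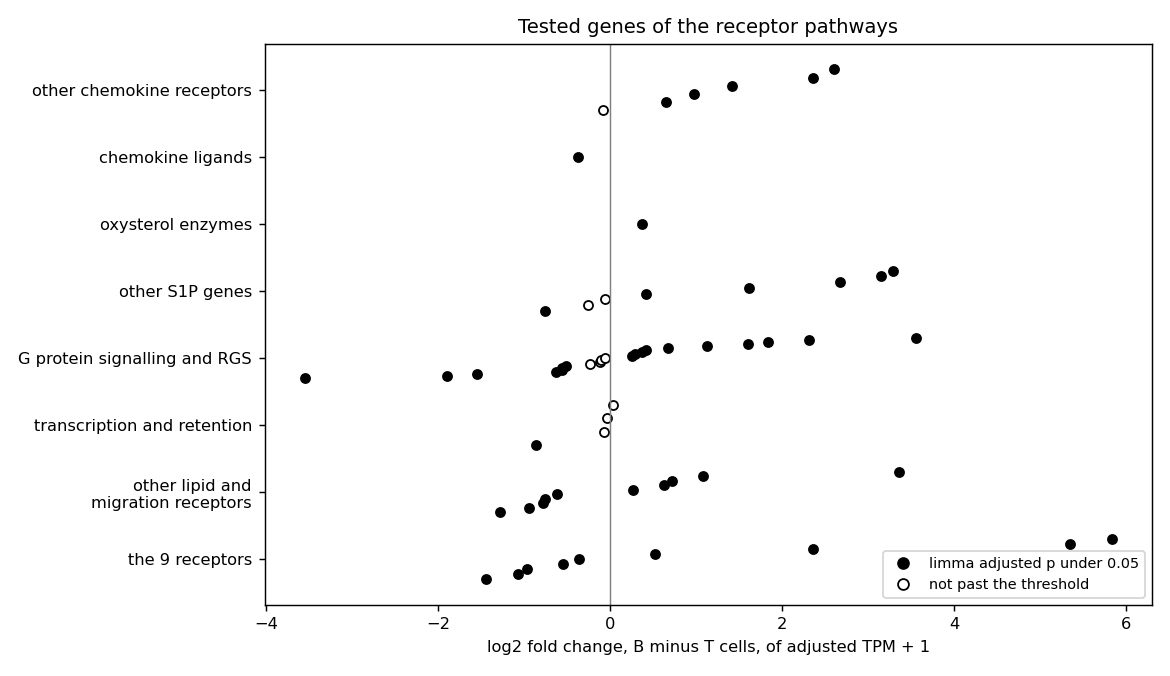
Log2 fold change, B minus T cells, of adjusted TPM + 1 (horizontal axis) for the 51 tested genes of the 7 pathway lists and the 9 receptors, 1 row of points a list. Filled points had a limma adjusted p under 0.05 and open points did not, and the 5 filled points of the other chemokine receptors, right of 0, are genes that passed the filter through the B libraries alone.

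In G protein signalling all 21 listed genes passed and 17 were called, against 73.0% of all genes. Of the 17, 10 were higher in B and 7 higher in T cells. Rgs18 and Adrbk2 passed through the B libraries alone. Rgs18 was at 9.53 to 15.3 adjusted TPM in B and at most 0.0565 in T libraries, and Rgs10 at 108 to 128 in T and 4.88 to 12.1 in B libraries, both being regulators that shorten G protein signals. Gnaq, a G protein alpha subunit, was at 8.31 to 9.76 in B and 0.721 to 1.29 in T libraries, and the gamma subunit Gng2 at 39.2 to 48.6 and 10.6 to 12.9. Arrb2, a beta-arrestin that desensitises receptors, was at 77.7 to 90.1 in T and 17.9 to 25.0 in B libraries, and Rgs3 at 21.3 to 24.3 and 6.16 to 8.83. Gnai2, the inhibitory subunit through which chemokine receptors signal, was not called, at 142 to 180 in B and 138 to 181 in T libraries.

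Of 4 regulators of transcription and retention, 1 was called, against 73.0% of all genes. Klf3, a repressor of the Klf family, was at 47.3 to 64.0 adjusted TPM in T and 22.5 to 34.3 in B libraries (log2 difference -0.86 ± 0.11, SE; limma adjusted p = 1.9e-05). Klf2, Foxo1 and Cd69 were not called. Klf2 differed by 0.03 ± 0.13 (SE), Foxo1 by -0.07 ± 0.07 (SE) and Cd69 by -0.04 ± 0.20 (SE).

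Of 12 other lipid and migration receptors, 10 passed the filter and all 10 were called, against 73.0% of all genes. They were split into 5 in each direction, with a median log2 difference of -0.18. Cnr2, the cannabinoid receptor of immune cells, was at 72.5 to 90.3 adjusted TPM in B and 6.42 to 7.66 in T libraries. P2ry10, a lysophosphatidylserine receptor, was at 129 to 185 and 56.5 to 102, and Gpr171 at 36.1 to 80.4 and 30.8 to 37.3. Gpr132 was higher in T cells, at 35.7 to 43.9 against 14.7 to 17.2, as were Gpr34, at 4.84 to 11.1 against 2.76 to 3.87, and Lpar5, a lysophosphatidic acid receptor, at 5.15 to 6.17 against 2.44 to 3.38.

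For each receptor the nearest of the other tested genes was sought by the root mean square difference of log2(adjusted TPM + 1) over the 12 libraries. S1pr1 was nearest to Cd2 (0.11) and S1pr4 to Gm16286 (0.09), while Gpr183 was nearest to Rnf187 (0.10) and Psmb6 (0.11). Ccr7 was nearest to Ldha (0.18) and Pdcd4 (0.19), and Cxcr5 to Ncf1 (0.27) and Irf8 (0.33). Cxcr4 had no close neighbour, its nearest genes Ms4a4c and H2-Q6 being 0.64 and 0.69 away. Ccr6 was nearest to the immunoglobulin segments Igkv19-93 (0.12) and Igkv6-15 (0.18), which like it were close to absent from the T libraries. Ccr9 and Cxcr3, both near 1 adjusted TPM in B cells, were nearest to Gm13169 (0.12) and to Plk1 (0.25).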

How the data were processed

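RNA-seq libraries were prepared with a strand-specific kit after removal of ribosomal RNA. Some label fields give genomic DNA as the material, and the values were treated as RNA. The table deposited by the authors holds, per library, a signal named adjusted TPM with a lower and an upper bound. The submitters' processing notes name Trim Galore, FastQC, STAR and mm10. The quantification, the adjustment and the level of the bounds are not given in the sources used here. The values are not counts, so depth is unknown.

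Genes with at least 1 adjusted TPM in at least 3 libraries were fitted with limma 3.58.1 (R 4.3.3) on log2(adjusted TPM + 1), with 1 coefficient per group, a variance trend and Benjamini-Hochberg adjustment. Single genes were tested by exact two-sided permutation. Scripts ran in Python 3.11.15 and were tested on simulated data. Loci came from GENCODE M21, which matched 40254 of 41128 identifiers. In T cells, female and male libraries of the same number deviated together (r = 0.721, 0.548 and 0.521 across genes), so the numbers pair them. Numbers 1 to 3 are B and 4 to 6 T libraries, so a block on the number bears on the sex comparisons, and for B against T cells the paired T libraries were averaged as an alternative.

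The receptors and lists were chosen with earlier results of these data known. The text names the 9 receptors, up to 3 called genes of each list in each direction by fold change, genes behind counts of 5 or fewer, and the 2 nearest genes of a receptor. Genes set beside the libraries numbered 6 and male B 3, and uncalled genes of the lists, were chosen after their values were seen. Ccl21c was not analysed here.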

Additional observations from a re-analysis of the deposited data

Results flagged for a closer look

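Ccr6 in female T 6 was at 0.0530 adjusted TPM, far from the other 5 T cell libraries, of which the nearest, male T 6, was at 0.0108. The gap made up 0.796 of the range of the 6 libraries, above Dixon's critical value for that number of libraries. This was 1 of 18 groups of 6 libraries examined, and chance flags about 1 in 20 groups. The value is far below the level of 1 adjusted TPM used to filter genes. The deposited bounds of Ccr6 in the T libraries differed by 5.49 to 518 times. The ratio was 13.5 in female T 6 and 518 in male T 6.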

How the results depend on the processing

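The log2 difference of each receptor between B and T cells and its call were read under 22 other settings. Another filter or none, the replicate block and a required minimum difference leave the log2 difference as it was. So does averaging same-numbered T libraries, and in all of these only the call could change. Most of the other settings each left out 1 library. Of 196 values, 188 kept their direction and call, 7 lost the call and 1 changed sign. The sign changed for Gpr183 with a common total (0.014). The calls lost were those of S1pr4 with a common total (-0.17), of Gpr183 with a common protein-coding total (-0.08), of Cxcr3 with same-numbered T libraries averaged (0.53), and of Ccr9, Cxcr3, Gpr183 and S1pr4 when a log2 difference of at least 1 was required. A filter of at least 5 adjusted TPM left out Ccr9 and Cxcr3, so they have no value there. The common total shifts all genes, as given with the medians above, and any other cause was not tested. That requirement left 5 of 9 receptors and 18 of 51 pathway genes called, with 21.6% of all genes. With same-numbered T libraries averaged, 8 of 9 receptors and 40 of 51 pathway genes were called, with 68.1% of all genes. That setting, the common protein-coding total and the fit without both T libraries numbered 6 were chosen after seeing the data. With single libraries left out, all 9 receptors stayed called, and no receptor was called for sex. In these fits 40 to 42 pathway genes were called, with 69.6% to 73.4% of all genes. The 9 receptors counted in this section include Ccr6 and Cxcr3, which passed the filter through the B libraries alone. The same holds for 12 of the pathway genes called above, and it favours a difference by itself. The number of receptors called for sex was 0 under every setting run, with smallest adjusted p-values in limma from 0.53 to 1 in B cells, 0.5 to 1 in T cells and 0.65 to 1 for their difference. With the replicate number as a block, 0 receptors were called for sex, and over all genes 14 were called in B cells and 10 in T cells, against 18 and 13 without it. In B against T cells, where the number is nested in the cell type, the block took out spread between pools that the comparison rests on, and 9 receptors and 9312 genes were called against 9134 without it. In B cells the numbers did not pair the libraries (r = -0.169, -0.0382 and -0.337). Below 1 adjusted TPM the deposited bounds are wide, which limits Cxcr3 and Ccr6 in T cells.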
